A study of Homo sapiens with 4 samples.

Results

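The genes described here are 42 genes of oxidant defence. They comprise the transcription factor NRF2 (gene NFE2L2) with its partners and repressors, the enzymes that make, recycle and spend glutathione, the thioredoxins and peroxiredoxins, catalase and a superoxide dismutase, the aldo-keto reductases, and enzymes that supply NADPH. They were chosen by gene symbol, from a list of names drawn up with earlier results of these data known. Each symbol matched 1 of the 41084 Ensembl identifiers in the deposited tables, and all 42 held enough counts to be tested.

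RNA of OCI-AML3 cells, an established human acute myeloid leukaemia line, was sequenced as poly(A) libraries. The study had 4 libraries, 2 with the genotype label Plex CEBPB and 2 with the label Plex Control, called the CEBPB and control libraries below. The labels name no drug, time point or clone for either group, do not explain the word Plex, and do not say whether the libraries of a group came from separate cultures, so p-values measure only the spread between these libraries. The series title places them in work on C/EBPβ, the transcription factor encoded by CEBPB, and on drug resistance in monocytic leukaemia cells.

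Library totals lay between 18151225 and 21950575 estimated counts. CEBPB itself stood at 4.72 and 4.47 TPM (a transcript level corrected for length and for library size) in control libraries 1 and 2, and at 536 and 339 TPM in CEBPB libraries 1 and 2. The leukocyte and myeloid genes PTPRC, SPI1, CD33, LYZ and CD68 were present in all 4 libraries at 46.5 TPM or more, while MPO and CD14 did not exceed 5.36 TPM. The myelomonocytic list of 12 genes summed to 2449 to 2546 TPM in the controls and 8410 to 8787 TPM in the CEBPB libraries, most of it LYZ. Without LYZ the other 11 genes summed to 1134 and 1141 TPM in the controls and 724 and 866 TPM in the CEBPB libraries. Of these, 6 were lower in both CEBPB libraries, among them SPI1 (218 and 223 against 103 and 120 TPM) and CD68 (371 and 366 against 156 and 191 TPM). Another 3 were higher in both. They were PTPRC (198 and 207 against 244 and 289 TPM), CD14 (1.06 and 0.996 against 5.36 and 4.63 TPM) and ITGAM (1.53 and 0.972 against 4.54 and 5.23 TPM). Of the T and NK cell list CD3E, CD2 and CD7 were at 0, of the erythroid list HBB, HBA1 and ALAS2, of the epithelial list KRT18 and KRT19, and of the endothelial list CDH5 and KDR. The endothelial list still summed to 86.9 and 77.6 TPM in the controls and 34.0 and 36.4 TPM in the CEBPB libraries, nearly all of it PECAM1. The summed level of the T and NK list was 23.3 to 25.3 TPM in the controls and 9.42 to 13.7 in the CEBPB libraries, mostly NKG7, and that of the B cell list was 7.16 to 8.09 and 2.52 to 2.97 TPM. The fibroblast list summed to 4.12 to 4.35 TPM in the controls and 25.4 to 25.7 TPM in the CEBPB libraries, of which the proteoglycan gene DCN made 20.4 and 20.8, and the collagen gene COL3A1 was below 0.01 TPM in all 4. The part of these markers in the results below was not tested.

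NRF2 is made continuously and is held by KEAP1, which hands it to a CUL3 ubiquitin ligase for destruction. Oxidants and electrophiles modify cysteines of KEAP1, NRF2 then accumulates, pairs with a small MAF protein such as MAFG and binds antioxidant response elements near genes for glutathione synthesis, thioredoxin reduction, quinone and haem breakdown and NADPH supply. BACH1 occupies the same elements as a repressor until haem binds it. Because NRF2 is controlled largely through its protein, the level of its mRNA is not a measure of its activity. Myeloid cells make oxidants themselves through the phagocyte NADPH oxidase, and these enzymes protect them from the product.

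Most of the oxidant defence genes differed between the groups, and more were higher than lower in the CEBPB libraries. Of 42 genes, 24 rose, 11 fell and 7 did not pass at an adjusted p under 0.05 (edgeR's quasi-likelihood test, Benjamini-Hochberg over 13698 identifiers). Over all identifiers tested, 23.7% were higher and 24.7% lower, 48.5% in all. The genes described here are all well expressed, and among the 8256 identifiers with a mean of at least 10.03 TPM, the lowest mean of the 42 genes, 28.4% were higher and 31.5% lower, 59.9% in all. The median log2 fold change was 0.43 over the 42 genes and 0.00 over all identifiers tested. A change of at least 2-fold past the threshold was found upward in 10 of the 42 genes, against 8.51% of all identifiers and 6.66% of the well expressed ones, and downward in 1, against 7.98% and 6.67%. Tested against a change of 1.5-fold, 14 genes were higher and 1 lower, with 8.66% and 8.67% of all identifiers. In TPM the groups did not overlap for 39 of the 42 genes, against 77.4% of all identifiers and 6888 of the 8256 well expressed ones. These are bulk libraries, in which fewer cells of a type and less RNA per cell cannot be told apart.

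Fold changes below are relative to the bulk of genes, because libraries were scaled by trimmed mean of M values. Scaled by library totals alone, the median over all identifiers was 0.18 on the log2 scale, and 28 of the 42 genes were called higher and 5 lower, with 32.3% and 17.2% of all identifiers. A ratio of TPM levels sits on that second scale and is therefore larger than the fitted fold change by a like amount.

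**Figure D1:**
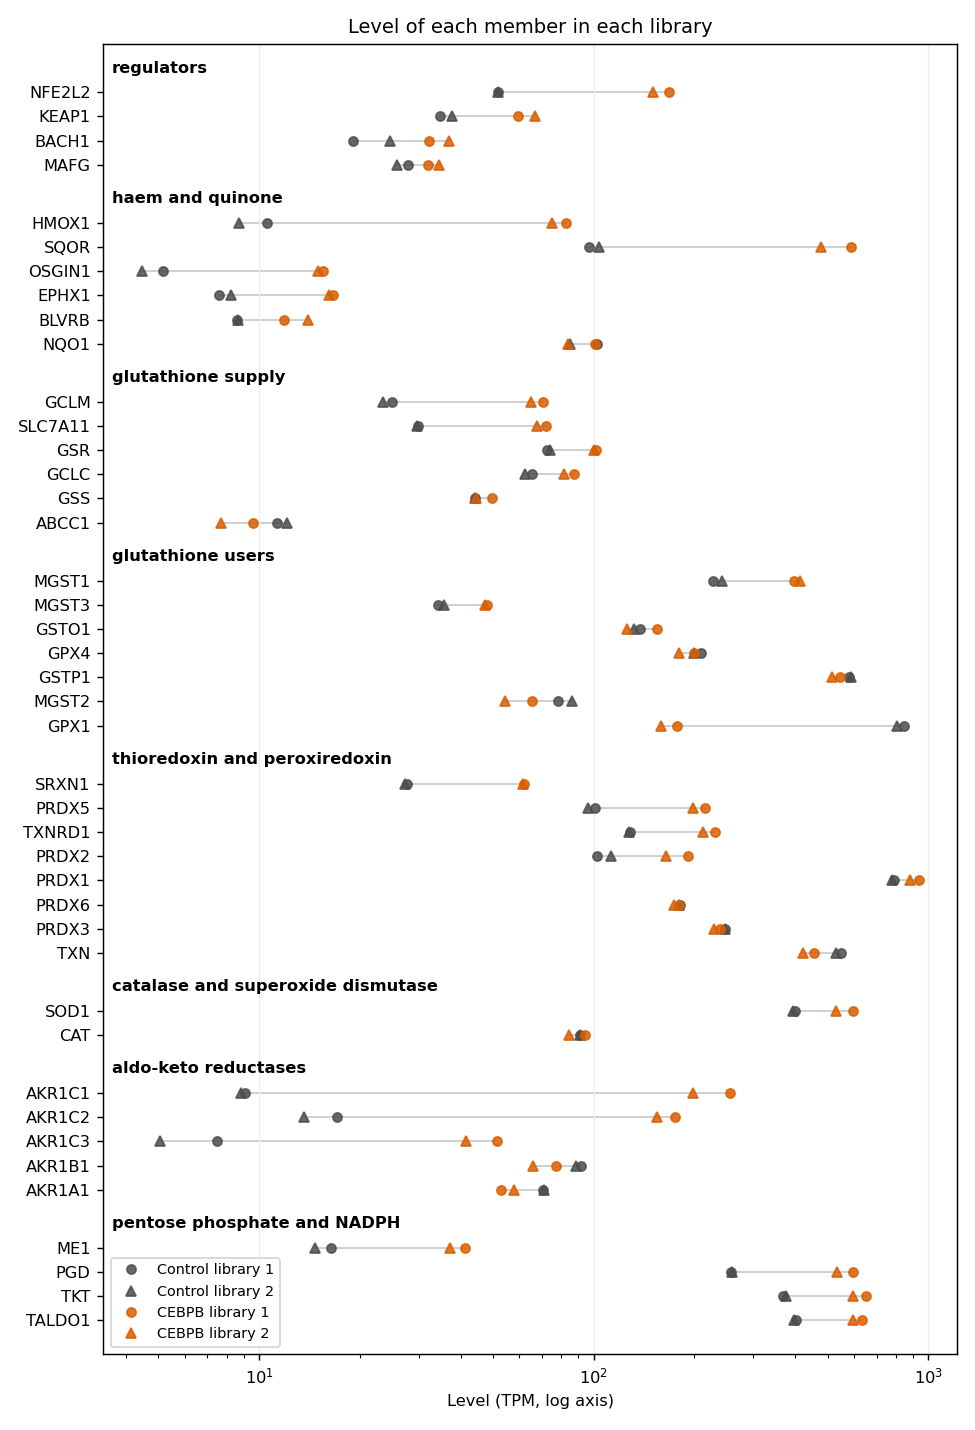
Level of each of the 42 genes in each library, in TPM on a log axis, by class. Grey symbols are control libraries and orange symbols CEBPB libraries, circles library 1 and triangles library 2. AKR1C1, AKR1C2, AKR1C3, HMOX1 and SQOR lie far to the right in both CEBPB libraries, and GPX1 lies far to the left.

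Promoter windows of several of the genes that rose contain an antioxidant response element core, and they are shown because this is the sequence that NRF2 with a small MAF protein is known to bind. Windows of 300 bases, from 250 before to 50 after an annotated start, were taken from RefSeq on GRCh38.p14. Of the 42 genes 33 had one or more windows, and those without were ABCC1, GSR, GSS, HMOX1, MGST2, PRDX1, PRDX6, SLC7A11 and SOD1. The core was searched as TGACNNNGC on both strands, where N is any base. It was present in a window of 9 of the 33 genes, EPHX1, GCLM, GSTO1, GSTP1, KEAP1, ME1, MGST1, PGD and TXNRD1, against 16.1% of 27305 genes in the whole table. Of these 9 genes 7 rose, GSTP1 fell and GSTO1 did not pass, beside 24 of all 42 genes that rose. Those 24 include HMOX1, GSR, SLC7A11 and SOD1, which had no window. The core was absent from the windows of AKR1C1, AKR1C2, AKR1C3, NFE2L2, SQOR, OSGIN1, SRXN1 and PRDX5, which also rose. It was likewise absent from those of GCLC, MGST3, PRDX2, TKT and TALDO1, the remaining genes that rose and had a window. Among the genes that fell, it was absent from the windows of GPX1 and TXN, for example. An AP-1 site, TGANTCA, was present for 4 of the 33 genes (BACH1, GSTP1, ME1 and OSGIN1) against 9.37% of all genes, and in GSTP1 and ME1 it overlaps the antioxidant core. A C/EBP core, TTGCNNAA, was present for 2 of the 33 (GCLC and PRDX3) against 12.7% of all genes. A match is a description of the letters and does not show binding. The 250 bases before the start are printed below for 3 genes that rose and for GSTP1, which fell, 5′ to 3′ on the gene's strand, with the antioxidant core in capitals. GCLM is at chr1:93909431-93909680 on the minus strand, ME1 at chr6:83431052-83431301 on the minus strand, TXNRD1 at chr12:104286782-104287031 on the plus strand and GSTP1 at chr11:67583562-67583811 on the plus strand.
GCLM: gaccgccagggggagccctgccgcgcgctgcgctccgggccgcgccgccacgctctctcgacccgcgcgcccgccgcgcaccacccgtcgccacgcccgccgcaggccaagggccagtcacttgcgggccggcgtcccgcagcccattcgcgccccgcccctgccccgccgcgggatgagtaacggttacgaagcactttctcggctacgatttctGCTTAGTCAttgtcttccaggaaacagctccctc
ME1: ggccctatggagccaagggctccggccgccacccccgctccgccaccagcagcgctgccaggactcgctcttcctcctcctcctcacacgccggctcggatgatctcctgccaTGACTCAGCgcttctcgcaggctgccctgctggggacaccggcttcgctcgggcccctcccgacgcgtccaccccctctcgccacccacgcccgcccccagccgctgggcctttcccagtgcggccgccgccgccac
TXNRD1: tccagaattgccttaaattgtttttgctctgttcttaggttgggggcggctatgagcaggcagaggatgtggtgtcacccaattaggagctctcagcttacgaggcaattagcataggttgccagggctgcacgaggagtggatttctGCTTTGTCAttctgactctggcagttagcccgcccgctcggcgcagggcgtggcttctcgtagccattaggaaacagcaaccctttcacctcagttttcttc
GSTP1: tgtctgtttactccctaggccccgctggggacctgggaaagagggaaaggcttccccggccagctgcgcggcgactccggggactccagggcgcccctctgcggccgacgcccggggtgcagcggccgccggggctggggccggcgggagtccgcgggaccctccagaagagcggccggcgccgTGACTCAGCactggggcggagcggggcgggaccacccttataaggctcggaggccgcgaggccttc
The core begins 34 bases before the start in GCLM, 137 in ME1, 102 in this window of TXNRD1 and 66 in GSTP1, and ME1 and GSTP1 carry the same core letters, TGACTCAGC.

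Among the regulators, NFE2L2 rose and so did its repressor KEAP1. NFE2L2 (ENSG00000116044.17, chromosome 2, 177227595 to 177392697, minus strand) stood at 51.7 and 51.7 TPM in the controls and 168 and 151 TPM in the CEBPB libraries. Both CEBPB libraries were far above both controls, which were nearly equal. The fitted log2 change was 1.44 (SE 0.07, adjusted p = 0.00017, edgeR), a 2.72-fold rise. In GENCODE v29 an exon of NFE2L2 overlaps AGPS on the opposite strand, at 73.3 and 74.4 TPM in the controls and 94.4 and 76.8 TPM in the CEBPB libraries, and the strand setting of the counting is not stated. KEAP1 (chromosome 19, 10486120 to 10503741, minus strand) stood at 34.8 and 37.7 TPM in the controls and 59.3 and 66.7 TPM in the CEBPB libraries, again without overlap. The fitted log2 change was 0.62 (SE 0.11, adjusted p = 0.0064, edgeR).

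BACH1, the competing repressor, stood at 19.1 and 24.7 TPM in the controls and 32.3 and 37.0 TPM in the CEBPB libraries. The groups did not overlap, but the controls differed from each other, and the estimate of 0.48 on the log2 scale (SE 0.16) did not pass (adjusted p = 0.052, edgeR). The estimate was 0.31 without control library 1 and 0.68 without control library 2. It was 0.62 without CEBPB library 1 and 0.35 without CEBPB library 2. Of 15 alternatives, 7 left BACH1 as not passed. Among those in which it passed were a block for the replicate number (adjusted p = 0.0067, edgeR), reads recovered from TPM and length (0.032, edgeR) and DESeq2 (0.038). MAFG, the DNA-binding partner, stood at 27.9 and 25.9 TPM in the controls and at 31.9 and 34.5 TPM in the CEBPB libraries, with a fitted log2 change of 0.12 (95% interval -0.12 to 0.37, adjusted p = 0.34, edgeR). SIRT7, which overlaps an exon of MAFG on the same strand, was at 22.9 and 24.1 TPM in the controls and 17.0 and 13.7 TPM in the CEBPB libraries, so the MAFG value is uncertain. Within each library the level of KEAP1 relative to NFE2L2 was 0.673 and 0.730 in the controls and 0.353 and 0.443 in the CEBPB libraries. The ratio of BACH1 to NFE2L2 was 0.368 and 0.478 in the controls and 0.192 and 0.246 in the CEBPB libraries. Both ratios were lower in both CEBPB libraries than in either control.

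**Figure D2:**
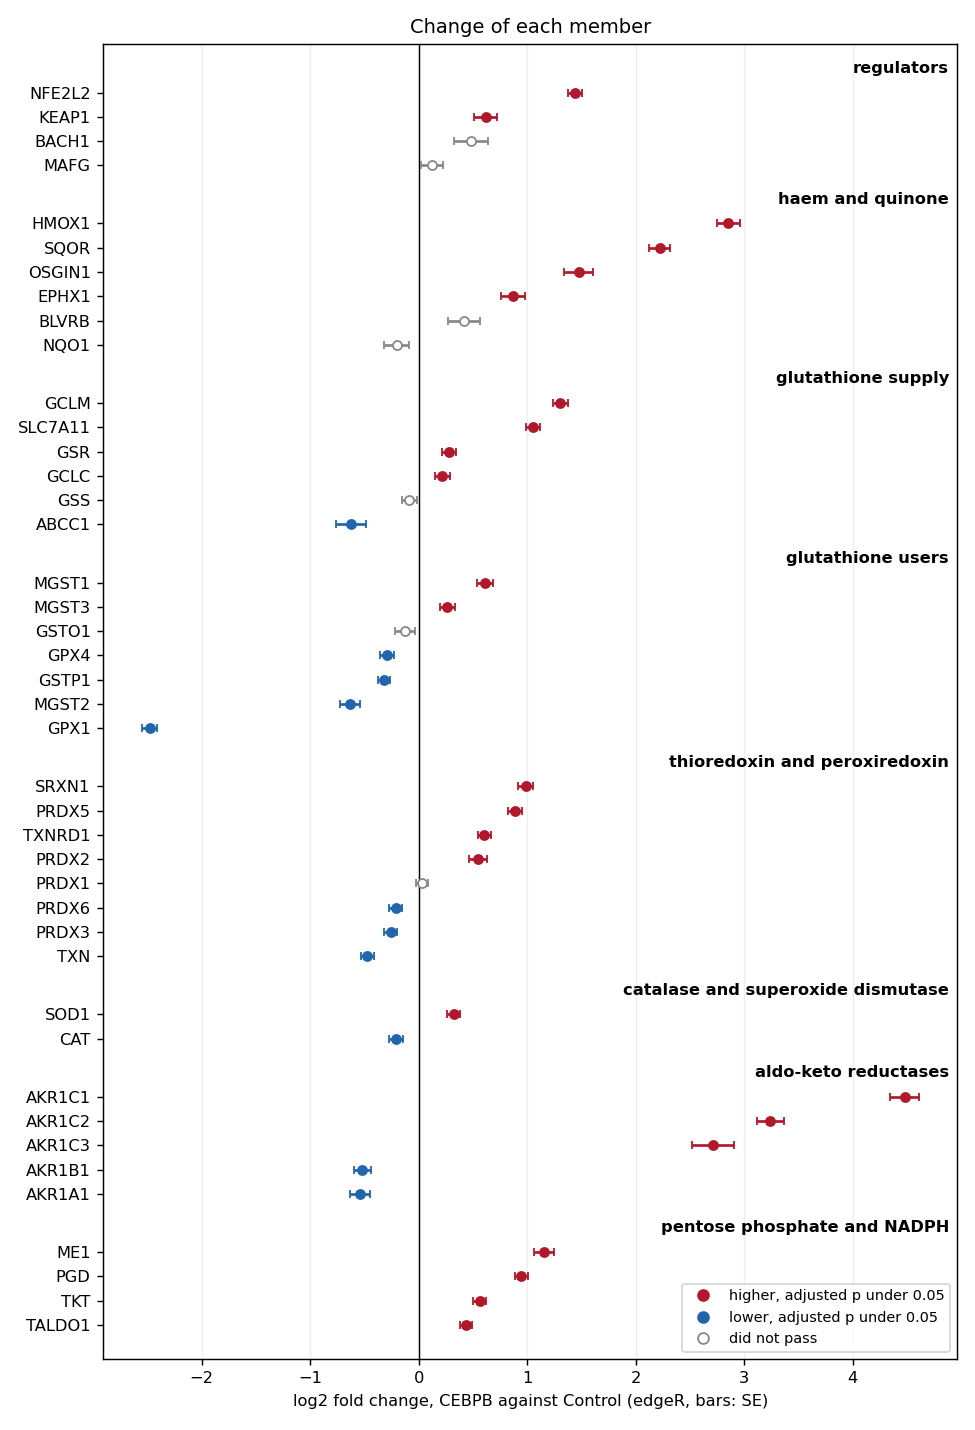
Log2 fold change of each of the 42 genes, CEBPB against control libraries, by class. Points are edgeR estimates with standard error bars, red where higher and blue where lower at an adjusted p under 0.05, and open where the gene did not pass. AKR1C1, at 4.48, lies at the right edge and GPX1, at -2.48, at the left.

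Of the 6 genes of the haem and quinone class, which also holds SQOR, OSGIN1 and EPHX1, 4 rose, none fell and 2 did not pass. HMOX1, the inducible enzyme that opens haem to biliverdin, stood at 10.6 and 8.73 TPM in the controls and 82.6 and 75.1 TPM in the CEBPB libraries. The fitted log2 change was 2.85 (SE 0.11, adjusted p = 0.00012, edgeR), a 7.22-fold rise. BLVRB, a biliverdin and flavin reductase, stood at 8.57 and 8.62 TPM in the controls and 11.9 and 14.0 TPM in the CEBPB libraries. The estimate of 0.41 on the log2 scale (SE 0.15, adjusted p = 0.067, edgeR) did not pass. It was 0.57 without CEBPB library 1 and 0.26 without CEBPB library 2. A pseudogene, BLVRBP1, was at 0 and 1.62 TPM in the controls and 4.0 and 4.01 TPM in the CEBPB libraries, so reads of BLVRB may be shared with it. BLVRA, another biliverdin reductase gene, outside the 42, rose (0.57, SE 0.08, adjusted p = 0.0038, edgeR). It stood at 23.9 and 22.7 TPM in the controls and 42.2 and 36.3 TPM in the CEBPB libraries. BLVRA was chosen for mention after its value was seen.

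SQOR, the mitochondrial enzyme that oxidises hydrogen sulfide and passes the electrons to ubiquinone (chromosome 15, 45631148 to 45691294, plus strand), stood at 97.0 and 104 TPM in the controls and 586 and 477 TPM in the CEBPB libraries. It rose by 2.22 on the log2 scale (SE 0.10, adjusted p = 0.00015, edgeR), or 4.67-fold, and moved from place 16 to place 6 in the order of mean TPM among the 42 genes. ETHE1, the dioxygenase that acts after SQOR in sulfide breakdown, fell (-0.72, SE 0.09, adjusted p = 0.0022, edgeR). ETHE1 was chosen for mention after its value was seen. OSGIN1, a growth inhibitor induced by oxidative stress, stood at 5.17 and 4.47 TPM in the controls and 15.5 and 15.0 TPM in the CEBPB libraries (1.48, SE 0.13, adjusted p = 0.00085, edgeR). EPHX1, the microsomal epoxide hydrolase, rose by 0.87 (SE 0.11), and an exon of it overlaps TMEM63A on the opposite strand, which was at 13.7 and 14.5 TPM in the controls and 27.7 and 25.9 TPM in the CEBPB libraries. TMEM63A was thus higher in the same libraries as EPHX1, and its part in the EPHX1 value was not tested.

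NQO1, a quinone reductase widely used as a readout of NRF2, did not pass the test. It stood at 102 and 84.98 TPM in the controls and 101 and 83.6 TPM in the CEBPB libraries. The groups overlapped, and the 2 libraries of each group differed from each other by more than the group means did. The fitted log2 change was -0.20 (SE 0.12, 95% interval -0.50 to 0.09, adjusted p = 0.21, edgeR).

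Glutathione is made in a pair of steps from cysteine, glutamate and glycine, and its supply depends on cystine import and on recycling of the oxidised form. Of the 6 genes of glutathione supply 4 rose, 1 fell and 1 did not pass. SLC7A11, the cystine transporter, stood at 29.8 and 29.6 TPM in the controls and 72.1 and 67.9 TPM in the CEBPB libraries, a rise of 1.06 on the log2 scale (SE 0.06, adjusted p = 0.00031, edgeR). GCLM, the modifier subunit of glutamate-cysteine ligase, whose promoter is printed above, stood at 24.9 and 23.5 TPM in the controls and 70.4 and 65.1 TPM in the CEBPB libraries. It rose by 1.31 (SE 0.07, adjusted p = 0.00023, edgeR), or 2.47-fold.

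The catalytic subunit of the same enzyme, GCLC, had a smaller estimate. It stood at 65.4 and 62.5 TPM in the controls and 87.3 and 81.4 TPM in the CEBPB libraries, a fitted log2 change of 0.22 (SE 0.07, adjusted p = 0.039, edgeR). That call was lost when any 1 of the 4 libraries was left out (adjusted p from 0.062 to 0.26), with the replicate block (0.064) and with DESeq2 (0.087). The level of GCLM relative to GCLC was 0.381 and 0.376 in the controls and 0.807 and 0.799 in the CEBPB libraries, so the modifier subunit came from well under the catalytic subunit to near it in mRNA. GSR, glutathione reductase, rose by 0.28 (SE 0.06, adjusted p = 0.016, edgeR), with adjusted p of 0.13 and 0.10 without control library 1 or 2. GSS, which adds the glycine, stood at 44.1 to 44.2 TPM in the controls and 49.8 and 44.4 TPM in the CEBPB libraries (-0.09, 95% interval -0.26 to 0.09, adjusted p = 0.35, edgeR). ABCC1, the membrane exporter of glutathione conjugates, stood at 11.3 and 12.1 TPM in the controls and 9.59 and 7.68 TPM in the CEBPB libraries. It fell (-0.62, SE 0.14, adjusted p = 0.015, edgeR), and did not pass without control library 2 (-0.58, adjusted p = 0.072) or with library totals (-0.44, adjusted p = 0.064).

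The 7 genes that spend glutathione counted 2 that rose, 4 that fell and 1 that did not pass. GPX1, the cytosolic glutathione peroxidase that reduces hydrogen peroxide, was the one gene of the 42 that fell by more than 2-fold. GPX1 (ENSG00000233276.9, listed as a polymorphic pseudogene in GENCODE v29, chromosome 3, 49357171 to 49358600, minus strand) stood at 846 and 805 TPM in the controls and 177 and 159 TPM in the CEBPB libraries. In the controls it had the highest mean TPM of the 42 genes, and in the CEBPB libraries it was at place 17. The fitted log2 change was -2.48 (SE 0.07, adjusted p = 7.0e-05, edgeR), a 5.57-fold fall. Its pseudogene GPX1P1 was at 0.271 to 2.83 TPM, under 1% of GPX1 in each library.

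GPX4, the peroxidase for lipid hydroperoxides in membranes, is like GPX1 a selenoprotein. It stood at 209 and 200 TPM in the controls and 199 and 180 TPM in the CEBPB libraries (-0.29, SE 0.06, adjusted p = 0.015, edgeR). The ratio of GPX1 to GPX4 was 4.05 and 4.02 in the controls and 0.890 and 0.881 in the CEBPB libraries. GSTP1, the main cytosolic glutathione transferase here, stood at 580 and 586 TPM in the controls and 546 and 514 TPM in the CEBPB libraries (-0.32, SE 0.06, adjusted p = 0.0072, edgeR). Neither GPX4 nor GSTP1 passed with library totals (adjusted p of 0.29 and 0.11) or without either control library (adjusted p from 0.070 to 0.13). GSTO1, an omega-class transferase, stood at 138 and 132 TPM in the controls and 154 and 125 TPM in the CEBPB libraries, which lay on both sides of the controls (-0.13, 95% interval -0.36 to 0.10, adjusted p = 0.30, edgeR).

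The microsomal glutathione transferases divided. MGST1, a membrane transferase and peroxidase, stood at 227 and 242 TPM in the controls and 397 and 414 TPM in the CEBPB libraries (0.61, SE 0.08, adjusted p = 0.0023, edgeR). MGST2, which can also make leukotriene C4, stood at 78.4 and 86.0 TPM in the controls and 65.5 and 54.4 TPM in the CEBPB libraries (-0.64, SE 0.09, adjusted p = 0.0037, edgeR). MGST3 rose slightly (0.27, SE 0.07, adjusted p = 0.027, edgeR), and did not pass without control library 1 (0.18), control library 2 (0.11) or CEBPB library 2 (0.070), with DESeq2 (0.10) or with recovered reads (0.11). The level of MGST1 relative to MGST2 was 2.90 and 2.81 in the controls and 6.06 and 7.61 in the CEBPB libraries.

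**Figure D3:**
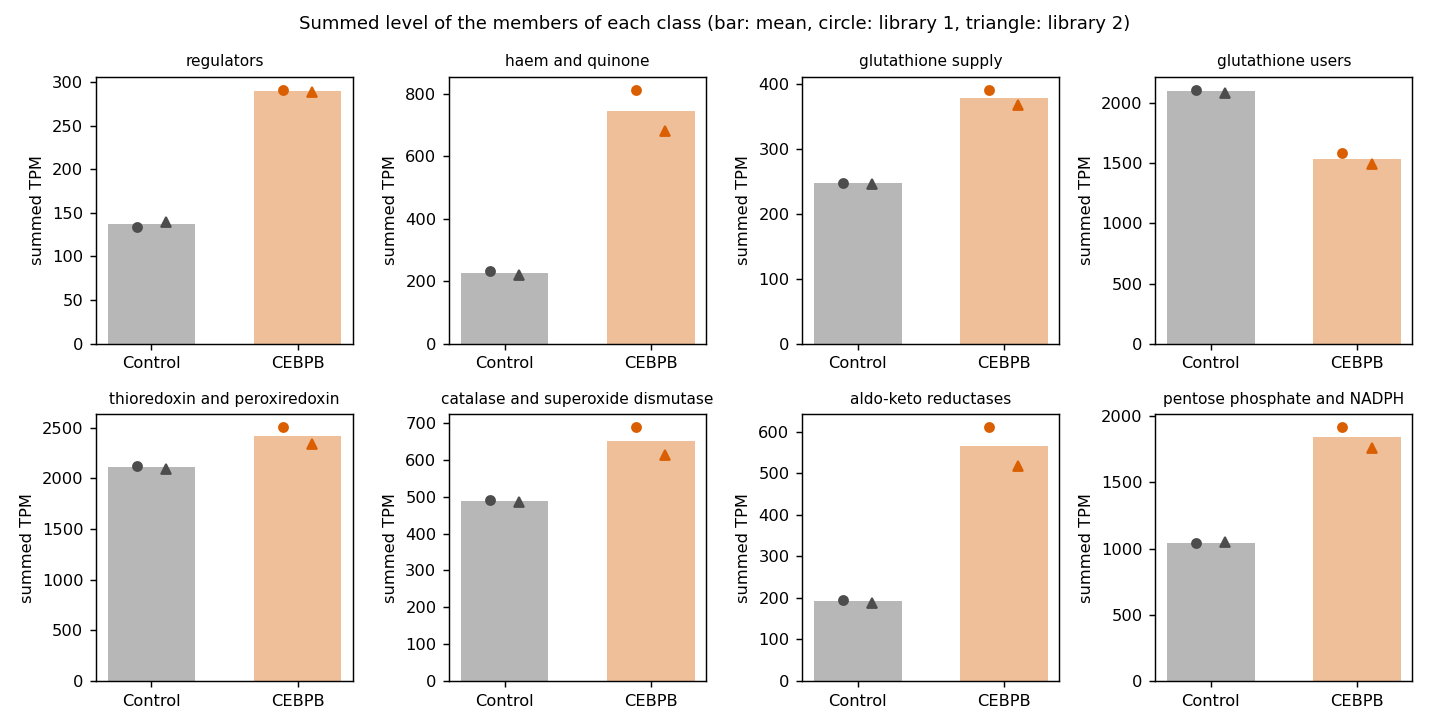
Summed TPM of the genes of each class, by group. Bars are means of 2 libraries, circles library 1 and triangles library 2. The sum of the glutathione users was lower in both CEBPB libraries (1586 and 1494 TPM, against 2113 and 2086 in the controls), and the other 7 sums were higher.

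Of the 8 genes of the thioredoxin system and peroxiredoxins 4 rose, 3 fell and 1 did not pass, and the reductase and the repair enzyme rose while thioredoxin itself fell. Thioredoxin carries electrons from NADPH through thioredoxin reductase to the peroxiredoxins, which reduce peroxides, and sulfiredoxin repairs peroxiredoxins that were over-oxidised. TXNRD1, the cytosolic reductase and a selenoprotein, stood at 128 and 128 TPM in the controls and 230 and 213 TPM in the CEBPB libraries (0.61, SE 0.06, adjusted p = 0.0011, edgeR). SRXN1, sulfiredoxin, stood at 27.7 and 27.2 TPM in the controls and 61.8 and 61.4 TPM in the CEBPB libraries (0.99, SE 0.07, adjusted p = 0.00044, edgeR). TXN, thioredoxin, stood at 549 and 528 TPM in the controls and 456 and 423 TPM in the CEBPB libraries (-0.47, SE 0.06, adjusted p = 0.0023, edgeR). The ratio of TXN to TXNRD1 was 4.27 and 4.13 in the controls and 1.99 in each CEBPB library.

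The peroxiredoxins did not move as a family. PRDX5, which is found in mitochondria, peroxisomes and cytosol, stood at 101 and 95.9 TPM in the controls and 215 and 197 TPM in the CEBPB libraries (0.89, SE 0.06, adjusted p = 0.00046, edgeR). PRDX2 stood at 102 and 113 TPM in the controls and 191 and 164 TPM in the CEBPB libraries (0.55, SE 0.08, adjusted p = 0.0043, edgeR). PRDX1, the most abundant of the 42 genes in the CEBPB libraries, stood at 789 and 779 TPM in the controls and 935 and 879 TPM in the CEBPB libraries. The fitted log2 change was 0.03 (95% interval -0.11 to 0.17, adjusted p = 0.68, edgeR), and 0.21 with library totals (adjusted p = 0.030). PRDX3, the mitochondrial peroxiredoxin (-0.26, adjusted p = 0.016, edgeR), and PRDX6 (-0.21, adjusted p = 0.033, edgeR) fell slightly. Neither passed with library totals (adjusted p of 0.35 and 0.71) or without either control library (adjusted p from 0.12 to 0.21), nor PRDX6 without CEBPB library 1 (0.068) or with the replicate block (0.066). The ratio of PRDX1 to SRXN1 was 28.4 and 28.6 in the controls and 15.1 and 14.3 in the CEBPB libraries.

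SOD1, the copper-zinc superoxide dismutase that makes hydrogen peroxide from superoxide, stood at 399 and 394 TPM in the controls and 595 and 530 TPM in the CEBPB libraries. It rose by 0.32 (SE 0.06, adjusted p = 0.0097, edgeR), with adjusted p of 0.079 and 0.088 without control library 1 or 2. CAT, catalase, which removes hydrogen peroxide in peroxisomes, stood at 90.7 and 91.1 TPM in the controls and 94.2 and 84.6 TPM in the CEBPB libraries, on both sides of the controls. Its call (-0.20, SE 0.06, adjusted p = 0.046, edgeR) was lost in 11 of 15 alternatives, among them leaving out any 1 library (adjusted p from 0.051 to 0.22). The ratio of SOD1 to CAT was 4.40 and 4.33 in the controls and 6.32 and 6.27 in the CEBPB libraries.

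**Figure D4:**
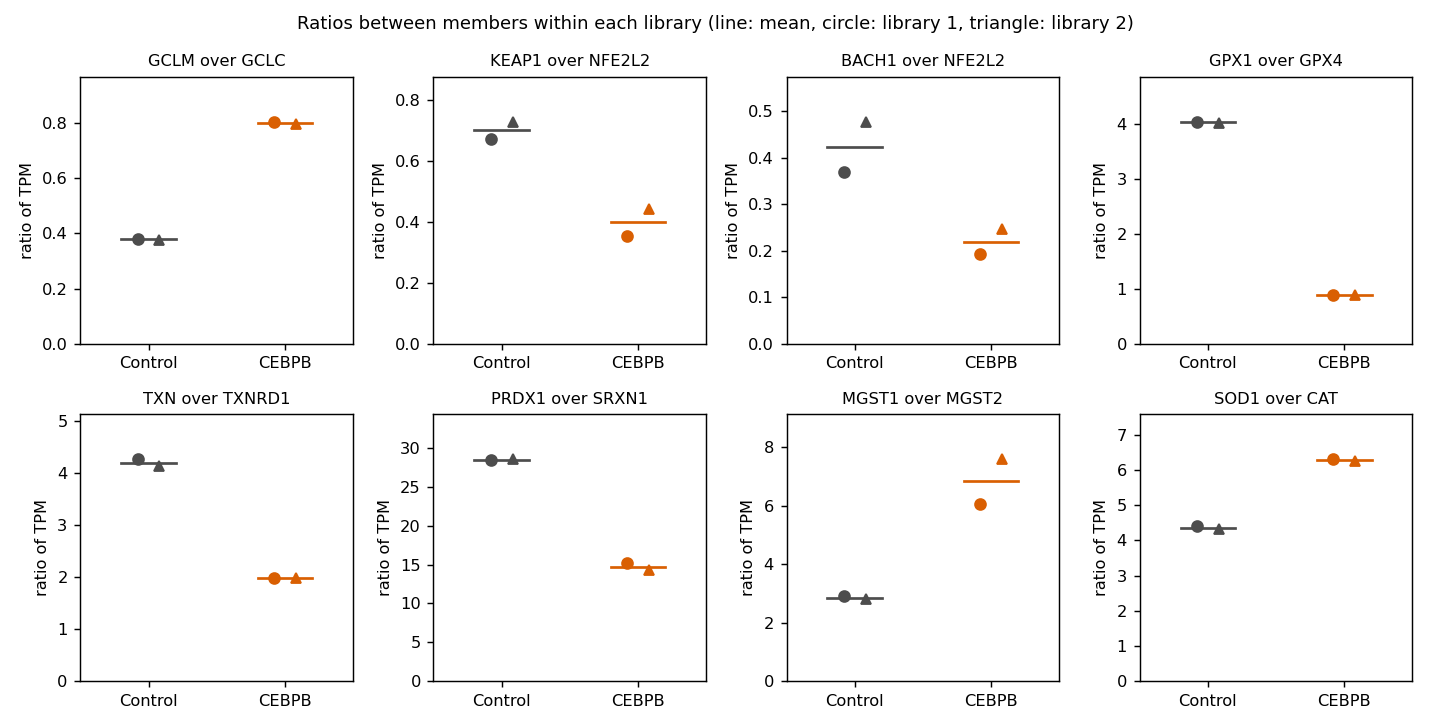
Ratios of TPM between pairs of genes within each library, with axes from 0. Lines are means of 2 libraries, circles library 1 and triangles library 2. In each of the 8 panels the 2 control libraries lie on one side and the 2 CEBPB libraries on the other.

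AKR1C1 and AKR1C2 had the largest log2 fold changes of the 42 genes, and AKR1C3 came next after HMOX1. The AKR1C enzymes reduce steroids, prostaglandins and reactive aldehydes. AKR1C1 stood at 9.08 and 8.85 TPM in the controls and 255 and 199 TPM in the CEBPB libraries, a fitted log2 change of 4.48 (SE 0.13, adjusted p = 7.8e-05, edgeR) or 22.3-fold. AKR1C2 stood at 17.1 and 13.7 TPM in the controls and 175 and 155 TPM in the CEBPB libraries (3.24, SE 0.12, adjusted p = 0.00012, edgeR). AKR1C3, which also acts as prostaglandin F synthase, stood at 7.47 and 5.05 TPM in the controls and 51.3 and 41.5 TPM in the CEBPB libraries (2.71, SE 0.19, adjusted p = 0.00044, edgeR). All 3 lie side by side on chromosome 10, AKR1C1 at 4963253 to 4983283 (plus strand), AKR1C2 at 4987400 to 5018031 (minus strand) and AKR1C3 at 5035354 to 5107686 (plus strand). AKR1C4, of the same family, was at 0 in all 4 libraries.

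The coding sequences of these genes are so alike that reads can fit more than 1 of them, and their first 120 coding bases are printed to show this. They come from GENCODE v29 transcripts, 5′ to 3′, with capitals where AKR1C2 or AKR1C3 differs from AKR1C1.
AKR1C1: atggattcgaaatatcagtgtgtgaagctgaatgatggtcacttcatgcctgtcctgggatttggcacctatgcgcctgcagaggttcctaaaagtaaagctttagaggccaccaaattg
AKR1C2: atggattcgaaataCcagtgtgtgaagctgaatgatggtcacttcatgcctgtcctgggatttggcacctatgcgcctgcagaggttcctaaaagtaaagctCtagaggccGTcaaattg
AKR1C3: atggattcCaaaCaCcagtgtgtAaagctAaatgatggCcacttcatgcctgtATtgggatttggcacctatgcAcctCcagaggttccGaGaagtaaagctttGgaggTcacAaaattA
Over the whole coding sequence of 972 bases AKR1C2 differed from AKR1C1 at 19 positions (98.0% identity) and AKR1C3 at 83 (91.5%). Of the 31-base words in the protein-coding transcripts of AKR1C1, 32.9% also occurred in those of AKR1C2, and of the words of AKR1C2 53.4% occurred in AKR1C1, against 3.20% and 5.32% shared with AKR1C3. Of the words of AKR1C3, 10.2% occurred in AKR1C1 and 10.4% in AKR1C2. The division of reads between AKR1C1 and AKR1C2 is therefore uncertain, and to a smaller extent so is the share of AKR1C3. The sum of the 3 genes depends less on that division and was 33.7 and 27.6 TPM in the controls and 481 and 395 TPM in the CEBPB libraries, 14.3-fold higher in the means.

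The other aldo-keto reductases fell. AKR1B1, aldose reductase, stood at 91.7 and 88.8 TPM in the controls and 77.1 and 65.7 TPM in the CEBPB libraries (-0.52, SE 0.08, adjusted p = 0.0040, edgeR). AKR1A1, aldehyde reductase, stood at 70.5 and 71.3 TPM in the controls and 52.7 and 57.9 TPM in the CEBPB libraries (-0.54, SE 0.09, adjusted p = 0.0063, edgeR). In all, 3 aldo-keto reductases rose and 2 fell.

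All 4 genes of the pentose phosphate pathway and NADPH supply rose. NADPH is the electron source for glutathione reductase, thioredoxin reductase and the aldo-keto reductases. PGD, which makes NADPH from 6-phosphogluconate, stood at 258 and 260 TPM in the controls and 594 and 534 TPM in the CEBPB libraries (0.95, SE 0.06, adjusted p = 0.00035, edgeR). ME1, the cytosolic malic enzyme, stood at 16.5 and 14.7 TPM in the controls and 41.3 and 37.1 TPM in the CEBPB libraries (1.15, SE 0.09, adjusted p = 0.00059, edgeR). The members from the non-oxidative branch are TKT and TALDO1. TKT, transketolase, went from 372 ± 6.11 to 623 ± 37.6 TPM (SD, n = 2) and rose by 0.56 on the log2 scale (SE 0.06), and TALDO1, transaldolase, went from 400 ± 5.08 to 614 ± 27.3 TPM and rose by 0.44 (SE 0.06).

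A further list of 88 redox genes outside the 42 gave companions for comparison. Of the 80 with enough counts to test, 23 rose, 29 fell and 28 did not pass, with a median log2 fold change of -0.05. These are 28.75% higher and 36.25% lower, against 23.7% and 24.7% of all identifiers tested. Among the 8256 well expressed identifiers the shares were 28.4% and 31.5%, near those of the companions. With library totals 30 were called higher and 23 lower, with 32.3% and 17.2% of all identifiers. Among those that rose, SQSTM1, an autophagy receptor that binds KEAP1, stood at 87.9 and 86.9 TPM in the controls and 284 and 291 TPM in the CEBPB libraries (1.54, SE 0.07, adjusted p = 0.00017, edgeR). SLC3A2, the heavy chain that carries SLC7A11 to the membrane, stood at 170 and 157 TPM in the controls and 393 and 358 TPM in the CEBPB libraries (1.02, SE 0.07). SOD2, the mitochondrial superoxide dismutase (2.31), NQO2, a quinone reductase related to NQO1 (2.18), and IDH1, a cytosolic enzyme that makes NADPH (1.46), also rose.

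Among the companion genes that fell, AKR7A2, an aldehyde reductase, stood at 74.5 and 74.3 TPM in the controls and 25.4 and 22.7 TPM in the CEBPB libraries (-1.81, SE 0.07, adjusted p = 0.00012, edgeR). SLC25A39, which brings glutathione into mitochondria (-1.26), GGCT, which breaks down gamma-glutamyl peptides (-1.19), RPIA, of the non-oxidative branch of the pentose phosphate pathway (-1.06), and GPX7 (-0.74) also fell. The small MAF proteins differed from each other, and they are named after their values were seen. MAFF rose from 2.37 and 1.98 to 7.05 and 5.79 TPM (1.38, SE 0.20) and MAFK fell from 13.5 and 10.5 to 6.65 and 6.33 TPM (-1.07, SE 0.17), while MAFG did not pass.

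**Figure D5:**
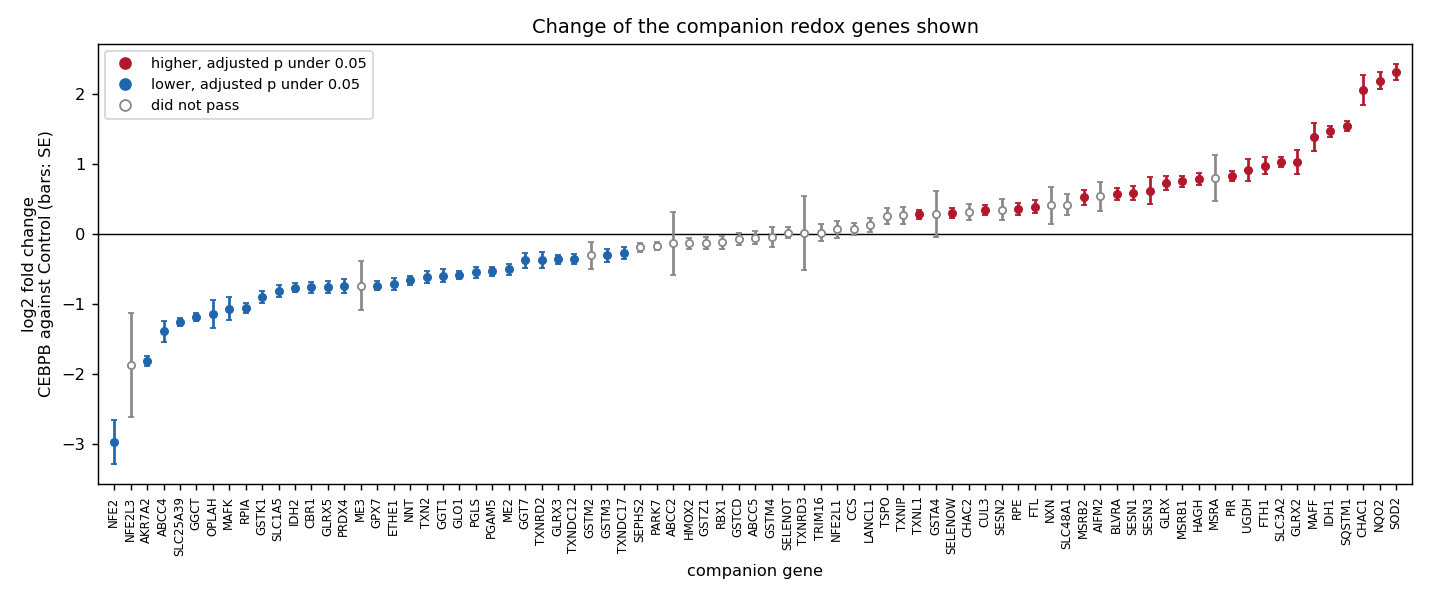
Log2 fold change of the companion redox genes tested, apart from 1 that did not pass and is not shown, in order of size, CEBPB against control libraries. Points are edgeR estimates with standard error bars, red where higher and blue where lower at an adjusted p under 0.05, and open where the gene did not pass, with 29 blue points and 23 red ones.

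The effective length, the abundance-weighted length of a gene's transcripts, was also described. It moves with the mix of transcripts, though not with that alone. None of the 42 genes differed by 1.2-fold or more without overlap, against 8.11% of all identifiers tested. That share includes weakly expressed identifiers, and none was computed for the well expressed ones, so the sets are not alike. NQO1 and ABCC1 came closest. NQO1 was at 850 and 842 bases in the controls and 1004 and 982 bases in the CEBPB libraries, a ratio of 1.17, with no change called in its level. ABCC1 was at 6470 and 6505 bases in the controls and 7478 and 7648 bases in the CEBPB libraries, also a ratio of 1.17. GPX4 was shorter in both CEBPB libraries, 598 and 582 bases against 664 and 635 in the controls. Among the companion genes named above, MAFK and SOD2 were longer in both CEBPB libraries, with ratios of 1.23 and 1.24. The part of this in their levels was not tested. The effective length was longer in both CEBPB libraries than in both controls for 29 of the 42 genes and for 43.0% of all identifiers, and the median ratio was 1.02 in either set.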

How the data were processed

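Per the submitters' processing notes, the authors used Trimmomatic 0.39, kallisto 0.46.2 and GRCh38. Which annotation release and strand setting they used, and how transcripts were summed to genes, is not given in the sources used here. The authors deposited estimated counts (expected counts), TPM and effective lengths in bases per Ensembl gene. Each deposited count equals the TPM times 1 constant per library, so it carries no transcript length. Symbols were matched by identifier (35690 of 41084), with coordinates from GENCODE v29 (GRCh38).

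Counts were rounded, filtered with filterByExpr, scaled with TMM factors (0.938 to 1.09) and fitted in R 4.3.3 with edgeR 4.0.16 (quasi-likelihood F test, Benjamini-Hochberg adjusted p under 0.05, biological coefficient of variation 11.3%). Recovered reads (TPM times effective length) of the 42 genes were 91 to 20460 per library. Alternatives used DESeq2 1.42.0 and limma 3.58.1, among others.

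The members and lists were chosen with earlier results of these data known. The naming rule gives values in each library for CEBPB, NFE2L2, KEAP1, BACH1, the AKR1C genes, members changed 2-fold or more, and the member with the smallest adjusted p per class and direction. Of the companion genes it names the 5 with the smallest adjusted p in each direction. Figures were drawn with matplotlib 3.10.9.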

Additional observations from a re-analysis of the deposited data

How the results depend on the processing

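Of the 35 called genes 15 kept direction and call in all 15 alternatives: NFE2L2, HMOX1, SQOR, OSGIN1, EPHX1, GCLM, SLC7A11, SRXN1, PRDX5, AKR1C1, AKR1C2, AKR1C3, PGD and ME1 upward, and GPX1 downward. Tested against a 1.5-fold change, 14 of the 42 genes were called higher and 1 lower, with 1186 and 1188 of all identifiers, and 10 and 13 of the companion genes. With library totals alone 5 of the 42 were called lower, and 5 also with limma on log2(TPM + 1) and on log2(TPM + 0.1). These settings do not correct for composition and moved the median of all identifiers to 0.18, 0.15 and 0.18. In these settings GSS turned to 0.095, 0.089 and 0.091 and GSTO1 to 0.055, 0.047 and 0.047 on the log2 scale, none of them called. With 1 library left out, the remaining one being taken to have the spread of the opposite group, 20 to 24 of the 42 genes were called higher and 5 to 10 lower, with 2289 to 2820 and 2398 to 3063 of all identifiers. The low values, 6 and 5, came without control library 1 and control library 2. With the replicate number as a block, 24 genes were called higher and 9 lower, with 3174 and 3308 of all identifiers. The deviations of control 1 correlated with those of CEBPB 1 at -0.013 over all identifiers tested. With 2 libraries per group this value cannot decide whether libraries of the same number were paired, and the titles do not say. The block ended the calls of GCLC, PRDX6 and CAT and made one for BACH1, and changed no other call of the 42. KEAP1, MGST1, MGST2, TXNRD1, PRDX2, TXN, AKR1A1, AKR1B1, TKT and TALDO1 lost their call only in the test against a 1.5-fold change.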
